A study of Canis lupus familiaris with 12 samples.

Results

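Cell-cell junctions were followed through 5 genes: DSP (Entrez gene 1832) and DSG2 (1829) of the desmosome, JUP (3728), CTNNA1 (1495) and GJA1 (2697). They were taken by their gene symbol from 4325 genes that have a clone with 1 symbol on the array, and 6 spots read them, 2 for CTNNA1 and 1 for each of the others. The genes were picked with their ratios of transfectant over control on these arrays in view, so those ratios are given as a description with no test.

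Desmosomes rivet epithelial cells together and anchor their keratin filaments. In them the desmosomal cadherin desmoglein-2 (DSG2) spans the membrane, plakoglobin (JUP) binds its tail, and desmoplakin (DSP) links plakoglobin to keratin. Adherens junctions are built on E-cadherin (CDH1), which binds beta-catenin or plakoglobin, and alpha-catenin (CTNNA1) connects these to actin. Gap junctions are channels of connexins, of which the one encoded by GJA1 is the most widespread. Snail and Slug, both zinc finger proteins, and E47, a basic helix-loop-helix protein made from TCF3, are known as repressors of CDH1.

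All RNA came from MDCK cells, a dog kidney epithelial line. Cells transfected with Snail, Slug or E47 were compared with cells named MDCK-CMV, the control, by 2-colour hybridisation to cDNA clones, and each transfectant had samples numbered 1 and 2. Each numbered sample was hybridised once with the transfectant in Cy5 and once in Cy3, which gave 4 arrays per transfectant and 12 in all. The labels do not say whether samples 1 and 2 were separate cultures or clones, whether the control RNA was 1 pool, or what the controls carry beyond the name CMV, so the spread between samples may be technical. The clones carry human gene names, and how well each one binds the dog transcript was not tested.

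A value is the log2 ratio of transfectant over control, so 1 unit is a 2-fold difference; absolute levels are not part of it. The labels do not name the numerator of the deposited ratio, and the signs bear no fixed relation to the dyes. Turning here means multiplying by -1, and it was done for the Snail 2 arrays and the Slug 1 arrays with either dye and for E47 2 with the transfectant in Cy5. Deposited values of arrays of 1 transfectant correlated with r between -0.74 and -0.37 over 11 pairs that differed in apparent orientation. Over the 7 pairs that shared it, r was between 0.26 and 0.68. The turning puts CDH1 below the control in each transfectant, with means of -2.07 in Snail, -2.46 in Slug and -2.07 in E47, so a fall of CDH1 is no finding and each direction below is an assumed one. With the sign of a transfectant turned, all its ratios change sign together, and whether a gene lies on the side of CDH1 does not change.

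The arrays held values for 10654 to 12982 of 13056 probes, and all 5 genes had a value on every array. SNAI1, the gene of Snail, lay at 1.70 ± 0.95 (SD, n = 2 samples) in the Snail transfectant, and at 0.67 ± 0.04 in Slug and 0.17 ± 0.03 in E47. TCF3, the gene of E47, lay at 0.71 ± 0.15 in the E47 transfectant but higher, at 1.11 ± 0.01, in Slug, and at -0.05 ± 0.25 in Snail. No probe carries the name SNAI2, so the level of Slug is not analysed here. Whether these clones read the introduced genes was not tested.

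Desmoplakin lay below the control on all 12 arrays and had the widest range of means among the 5 genes. In the Snail transfectant the log2 ratio of DSP was -2.83 with the transfectant in Cy5 and -1.94 in Cy3 for sample 1. Snail sample 2 gave -3.04 and -2.24, again in the order Cy5 and Cy3. Both Snail samples were therefore low with either dye, and lower with the transfectant in Cy5. In the Slug transfectant DSP was at -1.44 and -1.82 in sample 1 and at -1.92 and -1.50 in sample 2. In the E47 transfectant it was at -0.56 and -0.70 in sample 1 and at -0.59 and -0.83 in sample 2. The 3 sets of 4 arrays did not overlap, with Snail lowest, Slug next and E47 nearest to the control. The means were -2.51 ± 0.18 in Snail (SD, n = 2), a 5.70-fold lower level, -1.67 ± 0.06 in Slug, 3.18-fold lower, and -0.67 ± 0.06 in E47, 1.59-fold lower. The highest Snail array (-1.94) and the lowest Slug array (-1.92) lay next to each other.

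Desmoglein-2 also had means on the CDH1 side in each transfectant, but its samples lay far apart. In Snail, DSG2 was at -0.49 (Cy5) and -0.71 (Cy3) in sample 1 and at -2.02 and -1.73 in sample 2. In Slug it was at -1.75 and -1.61 in sample 1, and at -1.46 and 0.10 in sample 2. In E47 it was at -0.56 and -0.35 in sample 1 and at -1.26 and -0.86 in sample 2. The Slug 2 array with the transfectant in Cy3 was the 1 array of 12 above 0. The means were -1.24 ± 0.90 in Snail (SD, n = 2), -1.18 ± 0.71 in Slug and -0.76 ± 0.43 in E47, and the arrays of all 3 transfectants overlapped. For comparison, the median SD between the 2 samples over all genes was 0.16, 0.15 and 0.13. Without that Slug 2 array the Slug mean of DSG2 was -1.57.

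Plakoglobin was the gene that lay on different sides of the control. In Slug, JUP was at 0.77 (Cy5) and 0.95 (Cy3) in sample 1 and at 0.87 and 0.70 in sample 2, so all 4 arrays were above 0, between 0.70 and 0.95. In Snail it was at 0.01 and -0.66 in sample 1 and at -1.22 and -0.84 in sample 2. In E47 it was at 0.39 and 0.27 in sample 1 and at -0.22 and 0.07 in sample 2, on both sides of 0. The means were 0.82 ± 0.05 in Slug (SD, n = 2), 1.77-fold higher, -0.68 ± 0.50 in Snail, 1.60-fold lower, and 0.13 ± 0.29 in E47. JUP thus lay opposite to CDH1, DSP and DSG2 in the Slug transfectant and with them in the Snail transfectant.

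Alpha-catenin was lower in the Snail transfectant and near the control in the others. The Snail arrays of CTNNA1, over its 2 spots, were at -0.72 (Cy5) and -0.68 (Cy3) in sample 1 and at -0.93 and -1.13 in sample 2. The Slug arrays were at -0.02 and -0.15 in sample 1 and at 0.20 and -0.06 in sample 2. The E47 arrays were at -0.13 and -0.11 in sample 1 and at -0.49 and -0.21 in sample 2. The Snail arrays lay below all 8 others, while Slug and E47 overlapped. The means were -0.86 ± 0.23 in Snail (SD, n = 2), 1.82-fold lower, -0.01 ± 0.11 in Slug and -0.24 ± 0.16 in E47. The 2 spots carry the same clone and differed by a median of 0.08 and at most 0.29 within an array, against a median of 0.28 over the 2093 clones with 2 spots.

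The connexin gene GJA1 had its highest mean in E47. It was at 0.92 (Cy5) and 0.72 (Cy3) in E47 sample 1 and at 1.25 and 1.11 in sample 2. In Snail it was at 0.25 and -0.03 in sample 1 and at 0.64 and 0.70 in sample 2. In Slug it was at -0.19 and 0.22 in sample 1 and at 0.27 and 0.68 in sample 2. Every E47 array lay above every Snail and Slug array, though the lowest of E47 (0.72) and the highest of Snail (0.70) almost touched. The means were 1.00 ± 0.26 in E47 (SD, n = 2), 2.01-fold higher, 0.39 ± 0.40 in Snail and 0.24 ± 0.33 in Slug. Its Slug mean was 0.14 without the Slug 2 array in Cy3. In each transfectant the mean of GJA1 lay opposite to CDH1, and its Snail and Slug arrays overlapped.

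**Figure D1:**
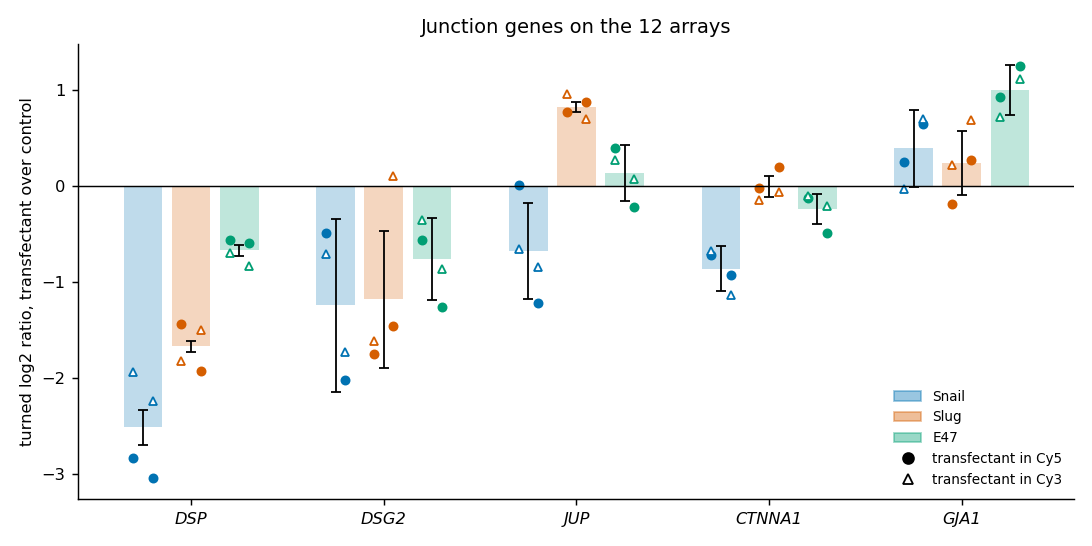
Turned log2 ratio of transfectant over control for DSP, DSG2, JUP, CTNNA1 and GJA1; bars are means of 2 numbered samples, error bars the SD over them, circles arrays with the transfectant in Cy5 and triangles in Cy3, with sample 1 left and sample 2 right. DSP steps from -2.51 in Snail to -1.67 in Slug and -0.67 in E47, JUP is above 0 on every Slug array, and 1 Slug array of DSG2 sits at 0.10, apart from the others.

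Set among all genes, DSP ranked 5th from the lowest of 3768 genes in Snail, 18th of 4053 in Slug and 71st of 3966 in E47. DSG2 ranked 31st, 55th and 52nd from the lowest, so it took a like place in all 3. CTNNA1 ranked 93rd from the lowest in Snail, while 46.2% of genes lay below it in Slug and 15.4% in E47. JUP ranked 163rd from the lowest in Snail and 199th from the highest in Slug, and 69.4% of genes lay below it in E47. GJA1 ranked 64th from the highest in E47, 269th in Snail and 1106th in Slug. Only DSP and DSG2 held a place within the lowest 2% of genes in all 3 transfectants, which describes these arrays and is no test.

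**Figure D2:**
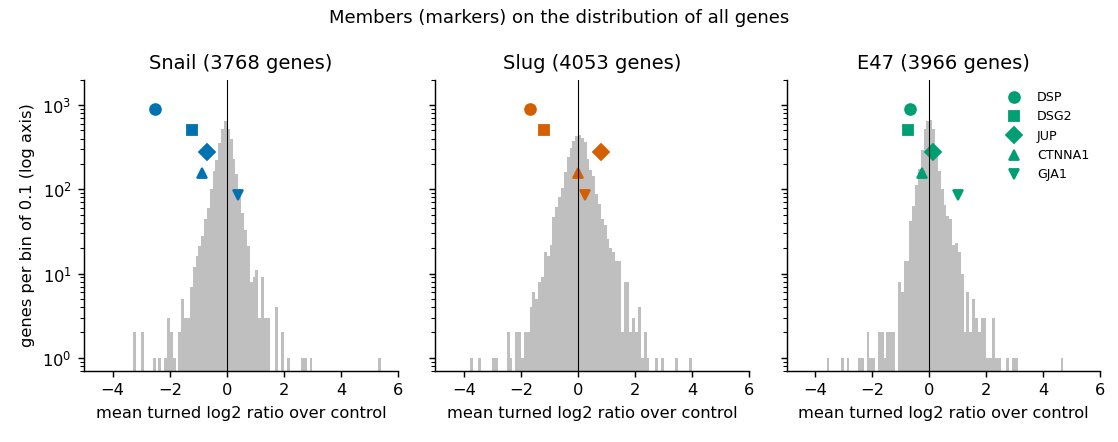
Histograms of the mean turned log2 ratio over all genes in each transfectant (bins of 0.1, log axis for the gene count), with the 5 genes as markers placed at their mean; marker height has no meaning. DSP lies in the left tail in each panel and nearest to the bulk of genes in E47, at -0.67, while JUP crosses from the left of 0 in Snail to the right in Slug.

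On the Snail arrays, 3 of the 5 genes (DSP, DSG2 and CTNNA1) lay below 0 on all 4 arrays, as did 24.1% of all genes. On the Slug arrays 1 gene, DSP, did (19.2% of all genes), and 1, JUP, lay above 0 on all 4 (22.3%). On the E47 arrays DSP, DSG2 and CTNNA1 lay below 0 on all 4 (14.5%) and GJA1 above (18.0%). The genes were chosen from these same ratios, so nothing is read from these counts. The median of the 5 was -0.86 in Snail, -0.01 in Slug and -0.24 in E47, beside medians over all genes of -0.05, 0.02 and 0.01.

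Differences between transfectants were compared for 5 genes over 3 pairs, 15 differences in all, with limma over all genes and Benjamini-Hochberg adjustment within each pair. The ratios of all 3 transfectants are against cells named MDCK-CMV. The genes were known from these arrays, so the p-values are not independent evidence of their choice. Of the 15 differences 4 passed: 3 of 5 genes between Snail and Slug, where 13.2% of all genes passed, and 1 of 5 between Snail and E47, where 2.57% passed. Between Slug and E47 0 of 5 passed in limma, where 0.786% of genes did. At an unadjusted p under 0.05, 3 of the 5 passed there (DSP, GJA1 and JUP), where 16.2% of genes did. With samples as a random block over the 12 arrays DSP passed between Slug and E47. That fit takes both dye arrays of a sample as observations with a shared correlation, so its calls rest partly on technical pairs.

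DSP was 3.58-fold lower in Snail than in E47, with Snail minus E47 at -1.84 ± 0.17 on the log2 scale (SE, n = 2 samples each; 95% interval -2.24 to -1.44), and this passed (adjusted p = 0.00805). It was 1.79-fold lower in Snail than in Slug, at -0.84 ± 0.17 (95% interval -1.24 to -0.43; adjusted p = 0.0231). Before any scaling of the arrays the step from Slug to E47 was of similar size, with Slug minus E47 at -1.0 ± 0.17 (95% interval -1.41 to -0.60). It did not pass (adjusted p = 0.0546). DSP thus passed between Snail and E47 and between Snail and Slug, and missed the threshold between Slug and E47. The order Snail, Slug, E47 was read from these same arrays, and the spread between samples may be technical. These calls are therefore not independent evidence of that order. The call of Snail against Slug was lost without Snail 1 (-0.97), Snail 2 (-0.71) or Slug 1 (-0.80), and that of Snail against E47 without E47 2 (-1.88). With the Cy3 arrays alone both were lost (-0.43 and -1.33), and over the alternatives adjusted p ran from 0.0141 to 0.382 and from 0.000192 to 0.143. Slug against E47 passed with arrays centred on their median, with complete probes only and with samples as a random block. It also passed without the E47 1 array in Cy3, and its adjusted p ran from 0.0199 to 0.316. With arrays scaled to 1 spread, Slug minus E47 shrank to -0.62 and Snail minus Slug grew to -1.28. The steps were then not of similar size.

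JUP was 2.83-fold lower in Snail than in Slug, with Snail minus Slug at -1.50 ± 0.26 (SE, n = 2 each; 95% interval -2.10 to -0.90; adjusted p = 0.014), and the 4 arrays of each did not overlap. JUP in E47 lay between them: Snail minus E47 was -0.80 ± 0.26 (adjusted p = 0.136) and Slug minus E47 0.70 ± 0.26 (adjusted p = 0.252), and neither passed. The call of Snail against Slug was lost without Snail 2 (-1.15) and with the Cy5 arrays alone (-1.43), with adjusted p between 0.000377 and 0.0632 over the alternatives. Snail against E47 passed with samples as a random block (adjusted p range 0.0354 to 0.469).

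CTNNA1 was 1.81-fold lower in Snail than in Slug, with Snail minus Slug at -0.86 ± 0.19 (SE, n = 2 each; 95% interval -1.30 to -0.41; adjusted p = 0.0292). Against E47 the difference was -0.63 ± 0.19 (95% interval -1.08 to -0.18) and did not pass (adjusted p = 0.122), although the arrays did not overlap; it passed with samples as a random block. Slug minus E47 was 0.23 ± 0.19 (adjusted p = 0.622). The call of Snail against Slug was lost without Snail 1 (-1.02), Snail 2 (-0.69), Slug 1 (-0.93) or Slug 2 (-0.78), and with the arrays of either dye alone (-0.91 in Cy5 and -0.80 in Cy3). Its adjusted p ran from 0.00188 to 0.134 over the alternatives, that of Snail against E47 from 0.0237 to 0.446.

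GJA1 was higher in E47 than in Slug, with Slug minus E47 at -0.76 ± 0.26 (SE, n = 2 each; 95% interval -1.36 to -0.16), and than in Snail, with Snail minus E47 at -0.62 ± 0.26. Neither passed (adjusted p = 0.218 and 0.241), although the arrays of E47 overlapped with neither. Snail minus Slug was 0.15 ± 0.26 (95% interval -0.45 to 0.75).

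DSG2 gave no difference past the threshold, and its intervals were the widest. Snail minus Slug was -0.06 ± 0.46 (SE, n = 2 each; 95% interval -1.13 to 1.01; adjusted p = 0.939), Snail minus E47 was -0.48 ± 0.46 and Slug minus E47 was -0.42 ± 0.46. An interval of this width leaves room for a difference of 2-fold either way between Snail and Slug.

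Over the 15 differences the arrays did not overlap in 9, 3 for each pair of transfectants, where 22.6% of all genes did not overlap between Snail and Slug, 20.1% between Snail and E47 and 12.7% between Slug and E47. These pairwise values rest on the sign of each transfectant. If 1 transfectant of the pair were turned, the difference between Snail and Slug would be -4.18 for DSP, -0.87 for CTNNA1 and 0.15 for JUP, and that between Snail and E47 -3.18 for DSP. The order of DSP by the size of its ratio, largest in Snail and smallest in E47, does not depend on these signs.

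**Figure D3:**
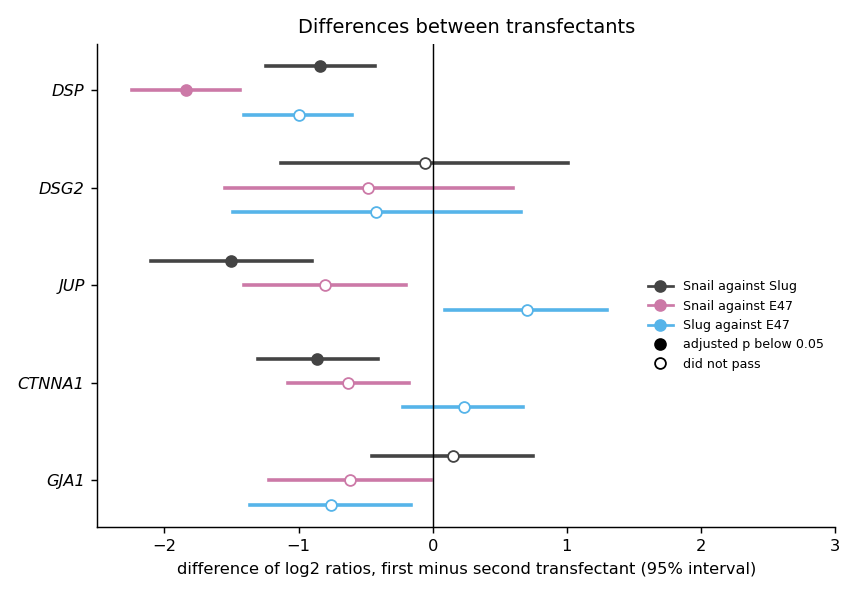
Differences of log2 ratios between transfectants, first minus second, for each gene, with 95% intervals from limma; filled points passed adjusted p of 0.05 and open points did not. DSP (Snail against Slug and against E47), JUP and CTNNA1 (both Snail against Slug) are filled, and the DSG2 intervals are the widest.

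The 2 arrays of a numbered sample differ in dye and are a technical check of each value. DSP differed between them by -0.89 and -0.80 (Cy5 minus Cy3) in Snail samples 1 and 2, which was the same direction in both, and by 0.38 and -0.42 in Slug. The 90th percentile of the size of this difference over all genes was 0.63 in Snail, 0.85 in Slug and 0.65 in E47. DSP in Snail therefore lay outside the usual range with either sample, and its mean was -2.93 on the Cy5 arrays and -2.09 on the Cy3 arrays. DSG2 in Slug 2 differed by -1.56 and JUP in Snail 1 by 0.66, both also beyond that percentile. The other 26 of 30 differences were at most 0.42 in size.

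**Figure D4:**
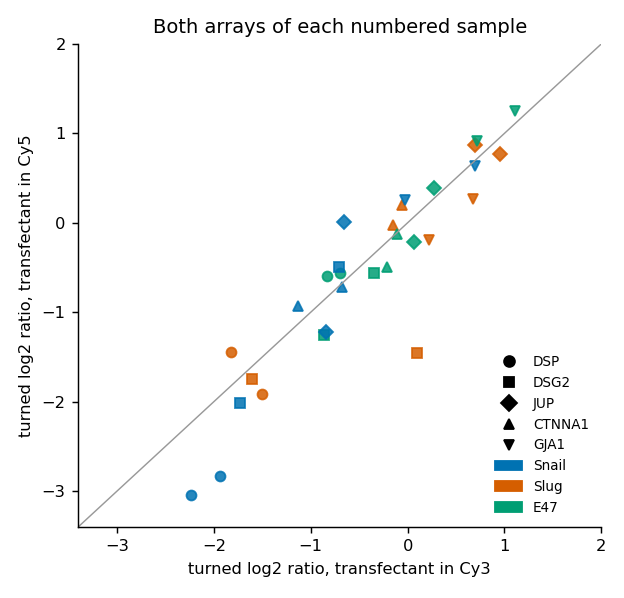
Turned log2 ratio with the transfectant in Cy5 (vertical) against Cy3 (horizontal) for each gene in each numbered sample; the grey line marks equal values, the shape gives the gene and the colour the transfectant. Most points lie near the line, the Slug 2 point of DSG2 (0.10 in Cy3 and -1.46 in Cy5) lies far below it, and both Snail points of DSP lie below it.

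Around these genes, 78 further genes of desmosomes, adherens junctions, gap junctions, tight junctions and polarity were listed, without CDH1, and 27 of them had a clone on the array. Of those tested, 1 of 23 passed limma in Snail, 2 of 25 in Slug and 2 of 25 in E47, and all of these were higher. The shares of all genes passing as higher were 2.15%, 12.2% and 3.81%. No listed gene passed as lower in any of the 3, where 5.07%, 9.62% and 1.49% of all genes did. At an unadjusted p under 0.05 in either direction 4, 5 and 5 of them passed, beside 24.3%, 36.2% and 20.4% of all genes. The list's medians were 0.00, -0.06 and -0.05.

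VCL, vinculin, which binds alpha-catenin and actin, passed in each transfectant. It lay on the 4 Snail arrays between 0.41 and 0.93, on the Slug arrays between 0.22 and 1.36 and on the E47 arrays between 0.95 and 1.81. Its mean rose by 0.66 ± 0.14 in Snail (SE, n = 2; adjusted p = 0.0306), 0.76 ± 0.14 in Slug (adjusted p = 0.00848) and 1.24 ± 0.14 in E47 (adjusted p = 0.00338). VCL so lay opposite to CDH1 on all 12 arrays, while its partner CTNNA1 lay on the CDH1 side in Snail. The Snail call of VCL was lost without Snail 1 (0.65) or Snail 2 (0.67), without the E47 1 array in Cy3 and with the arrays of either dye alone. Its Slug call was lost without Slug 1 (0.74) and with the Cy5 arrays alone (0.54), and its E47 call with the Cy3 arrays alone (1.04).

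CDH6, a classical cadherin of kidney epithelium, was the second gene to pass. It rose by 1.19 ± 0.22 in Slug (SE, n = 2; adjusted p = 0.0121), with arrays between 0.79 and 1.50, and by 1.16 ± 0.22 in E47 (adjusted p = 0.032), with arrays between 0.37 and 1.67. On the 3 Snail arrays with a value it lay between 0.22 and 0.84, and it was not tested there. The Slug call was lost without Slug 2 (0.92) and with arrays scaled to 1 spread (0.97), and the E47 call without E47 2 (0.76) and with the Cy3 arrays alone (0.91).

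The other desmosome genes did not pass. DSC2, desmocollin-2, the partner cadherin of DSG2, had means of -0.47 ± 0.23 in Snail (SD, n = 2), -0.46 ± 0.01 in Slug and -0.51 ± 0.31 in E47. It lay below 0 on all 12 arrays, and its adjusted p was 0.1, 0.063 and 0.0991. With samples as a random block over the 12 arrays DSC2 passed as lower in all 3 (adjusted p = 0.0263, 0.0178 and 0.0231), in Slug also with the sample number as a replicate block (0.0466) and in E47 without the E47 1 array in Cy3 (0.0358). DSG1, desmoglein-1, had -0.09, -0.06 and -0.17, and PKP1, plakophilin-1, had -0.09, -0.03 and 0.19. The Slug mean of PKP1 joins 0.35 on the Slug 2 array in Cy3 with -0.20 to -0.09 on the other Slug arrays. EVPL, envoplakin of the plakin family that also holds desmoplakin, had 0.04, 0.23 and 0.07. Of the 5 listed desmosome genes with a clone, 4 could be tested and 0 passed limma in any transfectant. At an unadjusted p under 0.05, 1 of 4 passed in each, beside 24.3%, 36.2% and 20.4% of all genes in Snail, Slug and E47.

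No other catenin passed. CTNNB1, beta-catenin, the closest relative of plakoglobin in this set, had 0.29 ± 0.27 in Snail (SD, n = 2), 0.20 ± 0.28 in Slug and 0.24 ± 0.03 in E47. Its Slug mean rested on the Slug 2 array in Cy3 (0.80), beside -0.06 to 0.06 on the other 3, and was 0.01 without it. CTNND1, p120-catenin, which stabilises cadherins at the membrane, had 0.00 ± 0.42, 0.35 ± 0.33 and -0.05 ± 0.27. CTNNAL1, alpha-catulin, lay further from the control, with means of -0.44, -0.91 and -1.41, but with SDs between the 2 samples of 0.47, 1.17 and 1.15. Of the other connexins GJA4, GJB2 and GJB5 and the channel protein PANX1 none passed limma over control. At an unadjusted p under 0.05 over control 0 passed, beside 24.3%, 36.2% and 20.4% of all genes in Snail, Slug and E47. The tested means of these connexins and PANX1 lay between -0.24 and 0.32. GJB2 was not tested in Snail, where its 3 arrays with a value lay between 0.35 and 0.50. CLDN1, claudin-1, the only tight junction gene that could be tested, had -0.30, -0.26 and -0.29.

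**Figure D5:**
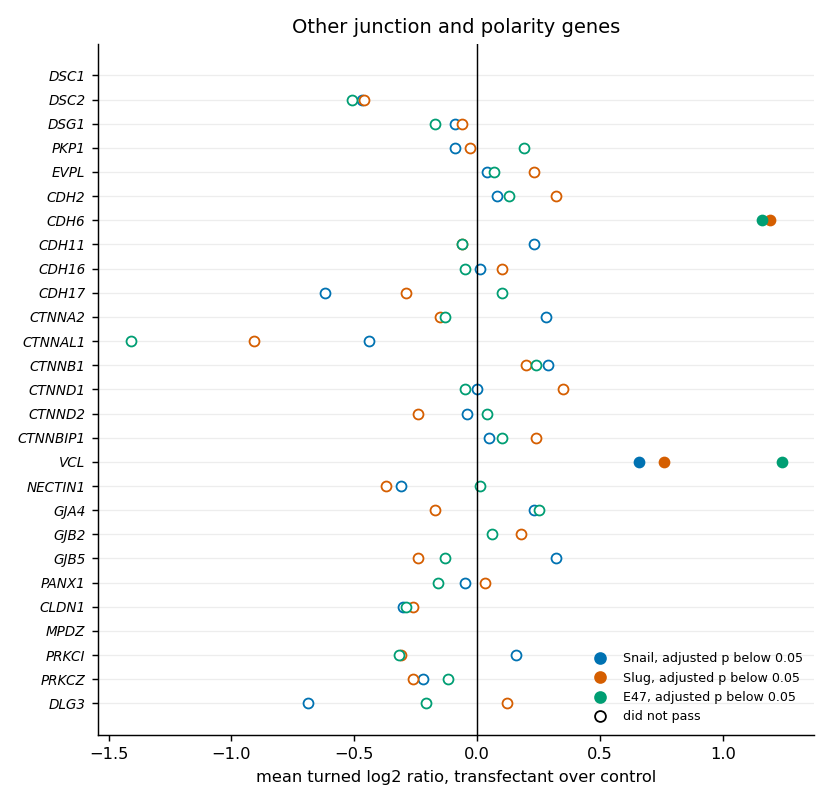
Mean turned log2 ratio over control for the 27 listed junction and polarity genes with a clone on the array, 1 row per gene, coloured by transfectant, filled where adjusted p was below 0.05; genes with no point in a transfectant could not be tested there. VCL is filled in all 3 transfectants and CDH6 in Slug and E47, and every other point is open.

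Between transfectants, 0 of 23 listed genes passed limma for Snail against Slug, 0 of 23 for Snail against E47 and 0 of 25 for Slug against E47. At an unadjusted p under 0.05, 4, 3 and 2 did, beside 31.1%, 20.0% and 16.2% of all genes.

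Of 20 listed intermediate filament genes, the partners of desmosomes inside the cell, 10 had a clone. KRT7, a keratin of simple epithelia, was lower in Snail (-1.0 ± 0.14, SE; adjusted p = 0.00695) and in E47 (-1.34 ± 0.14; adjusted p = 0.00302), and had -0.18 in Slug. That Slug mean joins 3 arrays at -0.47 to -0.37 and the Slug 2 array in Cy3 at 0.58; without that array it was -0.44 and passed (adjusted p = 0.039). In Snail 2 of 7 tested passed as lower, KRT7 and KRT16, where 5.07% of all genes did. In Slug 2 of 9 passed as lower, KRT14 (-0.85) and KRT19 (-2.19), beside 9.62% of all genes, and LMNA, lamin A, as higher (1.12), beside 12.2%. In E47 1 of 7 passed as lower, KRT7, beside 1.49% of all genes. Missing values kept some of these genes from being tested in every transfectant. KRT19 lay between -3.10 and -2.45 on the 3 Snail arrays with a value and between -2.19 and -1.77 on 3 E47 arrays, and LMNA between 0.43 and 1.25 on 3 E47 arrays. KRT14 lay between -0.83 and -0.35 on 3 E47 arrays. On its 2 Snail arrays with a value, both of sample 2, it lay far apart, at -1.78 in Cy5 and -0.00 in Cy3. The Snail call of KRT7 was lost without Snail 1 (-0.98) or Snail 2 (-1.02) and with the Cy3 arrays alone (-0.96). Its E47 call was lost with the Cy3 arrays alone (-1.27). The Snail call of KRT16 was lost without Snail 2 (-0.57) and with the arrays of either dye alone (-0.90 in Cy5 and -0.74 in Cy3). The Slug call of KRT14 was lost without Slug 1 (-0.53), with the Cy3 arrays alone (-0.29), with arrays scaled to 1 spread (-0.70) and with samples as a random block. KRT8 and KRT18, the keratin pair of simple epithelia, had means of -0.40 and -0.18 in Snail, 0.23 and 0.14 in Slug and -0.16 and -0.12 in E47, and neither passed.

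Markers of other cell types were followed over the same arrays. Of 6 leukocyte markers with a clone 4 were tested, and PTPRC passed as lower in Slug (-0.66), beside 9.62% of all genes. That call was lost without Slug 1 (-0.50) and with the arrays of either dye alone (-0.53 in Cy5 and -0.78 in Cy3). In Snail and E47 0 passed limma, with 1 and 0 at an unadjusted p under 0.05, beside 24.3% and 20.4% of all genes. PTPRC passed as lower in Snail with the Cy5 arrays alone (-0.75). Of 7 endothelial markers ENG (1.05) and TEK (0.62) passed as higher in Slug, beside 12.2% of all genes. Both calls were lost without Slug 1 (0.74 and 0.38) and with arrays scaled to 1 spread (0.85 and 0.52). That of ENG was also lost with the Cy3 arrays alone (0.58). That of TEK was also lost with the Cy5 arrays alone (0.27) and without the Slug 2 array in Cy3 (0.56) or the E47 1 array in Cy3. In Snail and E47 0 endothelial markers passed, with 1 each at an unadjusted p under 0.05, beside 24.3% and 20.4% of all genes. The part of these markers in the values of the 5 genes was not tested.

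The genes with the pattern nearest to each of the 5 were taken by the root mean square difference of the log2 ratio over the 6 numbered samples, among 3537 genes with values on all 12 arrays. For CTNNA1 these were MTCL1 (0.099), THY1 (0.125) and DOK4 (0.125), with Snail means of -0.75, -0.82 and -1.0. For GJA1 they were MMP8 (0.175), VEGFC (0.186) and COL9A2 (0.197), with E47 means of 0.76, 0.89 and 0.90. For JUP they were SLC2A1 (0.215), FBXL6 (0.221) and COQ10A (0.252), with Slug means of 0.65, 0.56 and 0.89. For DSG2 the nearest were ATL1 (0.393), FGF13 (0.409) and ACO1 (0.427). DSP had no gene as close: ADGRV1 (0.747), SEMA3C (0.790) and PLSCR1 (0.834) were nearest, and their Snail means of -1.48, -1.26 and -1.56 stayed above that of DSP. The measure takes in the size of the ratios, and few genes lay as low as DSP. Its distance is therefore not evidence of an unusual pattern.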

How the data were processed

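Log2 ratios of the 2 channels were deposited for 13056 probes, with empty cells for missing values. The base was checked on the values (100.0% of antilogs of values below -0.5 were whole thousandths on every array, within 6e-05 on the log2 scale). Array medians lay between -0.0634 and 0.0594. The SD over the values of an array lay between 0.446 and 0.695, and was larger on every Slug array than on any other. Which scanner, background correction and normalization the authors used is not given in the sources here. Signal over background is not part of the values, and the number of arrays limits precision.

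Probes with 1 gene symbol (8047; 276 had several and 4733 none) were used. In all, 5 arrays were turned; the leading eigenvector of the correlations within each transfectant, without CDH1 and the 5 genes, gave the same relative sign on 12 of 12 arrays. Spots of a clone were averaged, then clones of a gene, then both arrays of a numbered sample. One limma model (version 3.58.1, R 4.3.3) held the 3 transfectants (prior degrees of freedom 4.85) and was tested two-sided over genes with both samples in each group involved. The threshold was a Benjamini-Hochberg adjusted p under 0.05. Simulated data of 3537 genes had independent normal noise, no dye effect and no missing values, and only comparisons over control were scored. There the fit called 83% to 87% of genes changed by 1 log2 unit and 96% to 99% of those changed by 2, with 6 to 9 unchanged genes called. Recovery of differences between transfectants was not simulated. The 5 genes and the gene lists were chosen with earlier results of these data known; named are the 5, each listed gene that passed or stands for its class, and the 3 nearest genes of each. A ratio against 0 leaves out the control's own spread.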

Additional observations from a re-analysis of the deposited data

Results flagged for a closer look

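DSG2 on the Slug 2 array with the transfectant in Cy3 had a log2 ratio of 0.10, far from the other 3 Slug arrays at -1.75 to -1.46. The gap to the nearest array was 0.844 of the whole range, above Dixon's 95% critical value for 4 values. In 20 sets of 4 arrays this was the 1 case, and for independent values chance gives about 1 in 20. The 4 values of a set are 2 samples with both dyes, and the sets share arrays, so that rate is only a rough guide here. On the same array DSP was at -1.50, JUP at 0.70 and CTNNA1 at -0.06, all inside or next to the range of the other Slug arrays. GJA1 was at 0.68 there, above -0.19 to 0.27 on the others. Some other genes also stood higher on that array, with CTNNB1 at 0.80 (-0.06 to 0.06 on the others), KRT7 at 0.58 (-0.47 to -0.37) and KRT14 at 0.29 (-1.47 to -0.86). So did the desmosome genes PKP1 at 0.35 (-0.20 to -0.09) and DSG1 at 0.10 (-0.19 to -0.02). Others did not. KRT19 at -2.48, VCL at 0.61, DSC2 at -0.42 and CTNND1 at 0.29 lay inside the range of the other Slug arrays, and LMNA at 0.98 lay below it.

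In limma's test of the difference between transfectants 4 values passed (adjusted p of 0.0292, 0.0231, 0.014 and 0.00805 in the order given). They were CTNNA1 (Snail minus Slug -0.86), DSP (Snail minus Slug -0.84), JUP (Snail minus Slug -1.50) and DSP (Snail minus E47 -1.84). All 4 arrays of Snail lay below all 4 arrays of the other transfectant in each of them. The genes were chosen with these arrays known, so the p-values are not independent evidence. Each of the 4 calls was lost under some alternative. With 1 transfectant of the pair turned, the JUP value would be 0.15.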

How the results depend on the processing

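Of 115 means of the 5 genes over control under alternatives other than leaving out a sample or an array of another transfectant, 8 moved by more than the SD between samples, furthest for DSP in Snail with the arrays of 1 dye; none changed sign where both samples lay on 1 side of 0. Leaving out 1 of 2 samples cannot move a mean by its SD and is given as a range, widest for DSG2 (-1.87 to -0.60 in Snail, -1.68 to -0.68 in Slug and -1.06 to -0.46 in E47). Of 255 pairwise values of the 5 genes 226 kept direction and side of the threshold, 14 lost the call, 6 gained it and 9 changed sign, all of them uncalled. DSG2 in Snail minus Slug changed to 0.34 with the Cy5 arrays alone and to 0.33 without the Slug 2 array in Cy3, and GJA1 to -0.11 with the Cy3 arrays alone. With 1 sample left out DSG2 ran from -0.70 to 0.58 in Snail minus Slug, from -1.11 to 0.16 in Snail minus E47 and from -0.92 to 0.08 in Slug minus E47, and GJA1 from -0.13 to 0.43 in Snail minus Slug. A group left with 1 sample was assumed to vary like the others. Leaving out the 2 arrays was chosen after seeing the data. Of other named genes, KRT7 in Slug changed to 0.10 with the Cy3 arrays alone and ran from -0.42 to 0.06 with 1 Slug sample left out, CTNNB1 in Slug changed to -0.02 and PTPRC in E47 to -0.06 with the Cy5 arrays alone, all uncalled. The cause of these changes was not tested.

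Counts of other junction genes that passed were 1 in Snail, 2 in Slug and 2 in E47. With samples as a random block over the 12 arrays they were 4, 4 and 4, and 1 for Snail against Slug. In Snail the count was 0 with the Cy5 arrays alone, 0 with the Cy3 arrays alone and 0 without the E47 1 array in Cy3. In Slug it was 1 with the Cy5 arrays alone, 1 with arrays scaled to 1 spread and 1 with complete probes, and in E47 0 with the Cy3 arrays alone and 1 with complete probes. With 1 sample left out the ranges were 0 to 3 in Snail, 1 to 3 in Slug, 1 to 3 in E47 and 0 to 1 for Snail against Slug. Over all genes the calls numbered 272 in Snail (34 without Snail 2 to 570 with the random block), 885 in Slug (339 without Slug 1 to 1176) and 210 in E47 (26 without E47 2 to 428). Between transfectants they numbered 486 for Snail against Slug (88 to 801), 93 for Snail against E47 (1 to 365) and 30 for Slug against E47 (4 to 177), lowest with the Cy3 arrays alone and highest with the random block.

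The replicate block, with the sample number in the fit, gave counts of other junction genes of 1, 3 and 2 over control (DSC2 was the gene added in Slug) and changed no pairwise call of the 5 genes and no call of VCL or CDH6; over all genes it gave 294, 903 and 231 calls. The deviations of samples 1 and 2 correlated across genes with r of 0.02 (Snail and Slug), 0.23 (Snail and E47) and -0.07 (Slug and E47), so not every pair exceeded 0.1 and the numbers were not taken as pairing the samples; the labels do not say what a number marks.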
